A study of Homo sapiens with 34 samples.

Results

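The regions described here are places where RNA polymerase II (Pol II) was found on chromatin with and without induction, but neither near an end of a protein-coding gene nor on acetylated histone H3 lysine 27 (H3K27ac). They were chosen by a rule: a region of the uninduced Pol II list on chromosomes 1 to 22 or X, under 5 kb wide, that overlapped a region of the induced Pol II list, did not come within 1 kb of either end of a RefSeq protein-coding gene, and overlapped no region of either H3K27ac list. Of 57247 uninduced Pol II regions, 39838 overlapped an induced region, 38141 of these were under 5 kb, 24428 of those were away from gene ends, and 7898 also lay off H3K27ac. These 7898 members are 13.8% of the uninduced list and cover 8.06 Mb. The measured overlaps chose the members, so their sharing between lists and their lack of H3K27ac are given as description only. The rule's limits fell within continuous distributions. The widest member was 4994 bp and the narrowest region left out by width alone was 5007 bp. The member nearest a gene end lay 1001 bp away and the farthest region left out lay at 1000 bp, and the member nearest H3K27ac was 1 bp away. The fold enrichment is the authors' ratio of signal over local background at a summit, used here to rank and describe regions within a list. Folds of both lists are printed side by side for some members only, and their difference is not read as a change. The 12 members up to 100 bp under the width limit had a median fold enrichment of 7.71, beside 7.15 for the 6 regions up to 100 bp over it.

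All chromatin was from 1 line: DLD1, human colorectal adenocarcinoma cells in which doxycycline switches on a dominant negative TCF7L2. TCF7L2 is the transcription factor that acts with β-catenin on Wnt target genes. The transgene was present in every ChIP sample, untreated or induced by doxycycline (1 µg/mL, 24 h), and cells given doxycycline without it are not among them. Each antibody and condition had 2 samples, of 40 to 55M single reads of 75 bp each, that share a single peak list in the labels, so no difference has a replicate check and no p-value is given. Another 24 samples of RNA-seq from 4 lines and 2 inputs were not analysed here. As a check of the cell type, 11 of 12 colon epithelial marker genes had H3K27ac within 1 kb of an end, CDH17 being the exception, beside 8 of 20 immune, stromal and endothelial markers and 6 of 20 liver, muscle and neuron markers.

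Pol II transcribes a gene in stages. It gathers and pauses just after the transcription start, moves through the gene body, and continues past the polyadenylation site, where the transcript is cleaved, the polymerase slows and it is released from the DNA downstream. H3K27ac marks active promoters and enhancers and is usually sparse over gene bodies and the zones where transcription ends. Pol II is also found at promoters of noncoding RNA genes, and some small RNA and ribosomal RNA genes are instead transcribed by other polymerases.

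Promoter sequences of RefSeq (GRCh38.p14) were available for long noncoding RNA (lncRNA) genes, each as a window of 300 bases from 250 before to 50 after an annotated start. Of the windows on the chromosomes used, 50 from 46 lncRNA genes touched a member. They are described because the window around an annotated transcription start met a member although no H3K27ac region overlapped that member. A window can touch a member with only part of its bases, so the start itself need not lie in the member. The 4 windows below lay wholly inside the members with the highest −log10 q and the last, for contrast, lay in the strongest region on H3K27ac that held such a window whole, among shared Pol II regions away from coding gene ends. Each runs 5′ to 3′ on the gene's strand, and capitals mark CpG dinucleotides, which are dense in many promoters of broadly active genes.
SLC4A8-AS1, chr12:51424640-51424939, minus strand: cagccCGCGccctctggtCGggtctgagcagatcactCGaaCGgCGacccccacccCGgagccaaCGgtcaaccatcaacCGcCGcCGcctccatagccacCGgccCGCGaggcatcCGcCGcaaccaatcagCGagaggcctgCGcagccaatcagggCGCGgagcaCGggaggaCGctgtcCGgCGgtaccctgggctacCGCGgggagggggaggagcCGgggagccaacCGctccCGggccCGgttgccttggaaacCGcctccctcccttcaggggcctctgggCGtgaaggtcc
SRRM2-AS1, chr16:2744748-2745047, minus strand: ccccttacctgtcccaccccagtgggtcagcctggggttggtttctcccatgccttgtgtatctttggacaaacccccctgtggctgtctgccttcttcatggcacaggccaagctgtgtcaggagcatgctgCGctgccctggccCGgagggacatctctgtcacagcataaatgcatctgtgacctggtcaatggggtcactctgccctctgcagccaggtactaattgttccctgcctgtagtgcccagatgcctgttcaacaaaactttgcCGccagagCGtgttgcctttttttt
LOC105376328, chr9:137161011-137161310, minus strand: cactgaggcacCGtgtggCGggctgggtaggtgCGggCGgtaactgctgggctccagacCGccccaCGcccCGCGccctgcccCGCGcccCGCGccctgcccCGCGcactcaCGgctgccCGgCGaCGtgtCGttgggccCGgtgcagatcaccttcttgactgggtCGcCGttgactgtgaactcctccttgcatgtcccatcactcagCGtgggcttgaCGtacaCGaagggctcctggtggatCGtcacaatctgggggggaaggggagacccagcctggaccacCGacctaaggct
LOC105372449, chr19:52231177-52231476, plus strand: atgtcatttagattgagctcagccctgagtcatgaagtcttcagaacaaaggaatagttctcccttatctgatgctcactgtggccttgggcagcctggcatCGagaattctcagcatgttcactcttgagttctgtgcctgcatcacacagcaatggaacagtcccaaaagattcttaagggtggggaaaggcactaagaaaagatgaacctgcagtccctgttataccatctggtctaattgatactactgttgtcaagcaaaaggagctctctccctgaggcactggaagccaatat
LINC01719, chr1:146052346-146052645, plus strand, on H3K27ac: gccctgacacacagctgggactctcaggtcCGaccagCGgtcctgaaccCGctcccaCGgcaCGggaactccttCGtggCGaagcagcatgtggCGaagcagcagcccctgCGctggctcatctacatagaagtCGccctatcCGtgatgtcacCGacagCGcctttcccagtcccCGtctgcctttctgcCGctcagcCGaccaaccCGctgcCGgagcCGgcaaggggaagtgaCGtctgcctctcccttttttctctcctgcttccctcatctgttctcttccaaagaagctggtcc
The windows differed in base composition. SLC4A8-AS1 held 32 CpG dinucleotides and 72% G and C, and LOC105376328 held 27 CpG, while SRRM2-AS1 held 4 and LOC105372449 held 1, with 46% G and C. LINC01719, the contrast on H3K27ac, held 20, and its Pol II region had folds of 68.1 uninduced and 57.7 induced. Over all 50 windows touching a member the median was 7.5 CpG (quartiles 3.25 and 14), beside 16 for the 972 lncRNA windows on shared Pol II regions with H3K27ac, 3 for the 9661 lncRNA windows touching no uninduced Pol II region, and 27 for the 13275 coding windows that touched one. The letters TATAAA on either strand were in 6 of the 50 member windows (12%), beside 8.23% of the H3K27ac windows, 15.1% of all 12829 lncRNA windows, 18.3% of the lncRNA windows touching no uninduced Pol II region and 11.5% of all 34961 windows of the table. The letters CTTTGAT on either strand, the core that TCF factors bind, were in 0 of the 50 windows, beside 1.95% of the H3K27ac windows, 3.73% of all lncRNA windows and 2.63% of all windows.

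The members that hold the printed windows were of different kinds. The SLC4A8-AS1 member, inside the bicarbonate transporter gene SLC4A8 and 32.8 kb from the nearest coding gene end, had a fold enrichment of 15.8 in the uninduced list and 8.75 in the induced list. The SRRM2-AS1 member lay 5.18 kb before the 5′ end of SRRM2, a splicing factor gene, with folds of 6.98 and 4.66. The LOC105376328 member lay inside GRIN1, a glutamate receptor gene, only 0.344 kb from H3K27ac, with folds of 6.85 and 5.19. The LOC105372449 member lay 1.05 kb beyond the 3′ end of PPP2R1A, a phosphatase subunit gene, and 36.8 kb from H3K27ac, with folds of 6.08 and 5.85. Its window had the fewest CpG of those printed.

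Members were low and short beside other shared Pol II regions. Their median width was 708 bp (range 267 to 4994), against 825 bp for the 16530 shared regions of the same kind on H3K27ac and 1527 bp for the 13713 shared regions at gene ends. The median fold enrichment in the uninduced list was 3.63 (range 1.39 to 18.4) in members, 5.82 on H3K27ac and 19.9 at gene ends. The median −log10 q, the authors' measure of confidence, was 5.57 in members against 18.1 and 149.9, and only 353 members (4.47%) reached 20, as 50.2% of all shared regions did. Regions away from gene ends and from H3K27ac that were in the uninduced list only, 8486 in all, were lower still, with a median width of 381 bp and fold of 2.998. A member had a single summit in 54.1% of cases, against 69.0% of the regions on H3K27ac, 46.2% at gene ends and 55.2% of all shared regions.

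**Figure D1:**
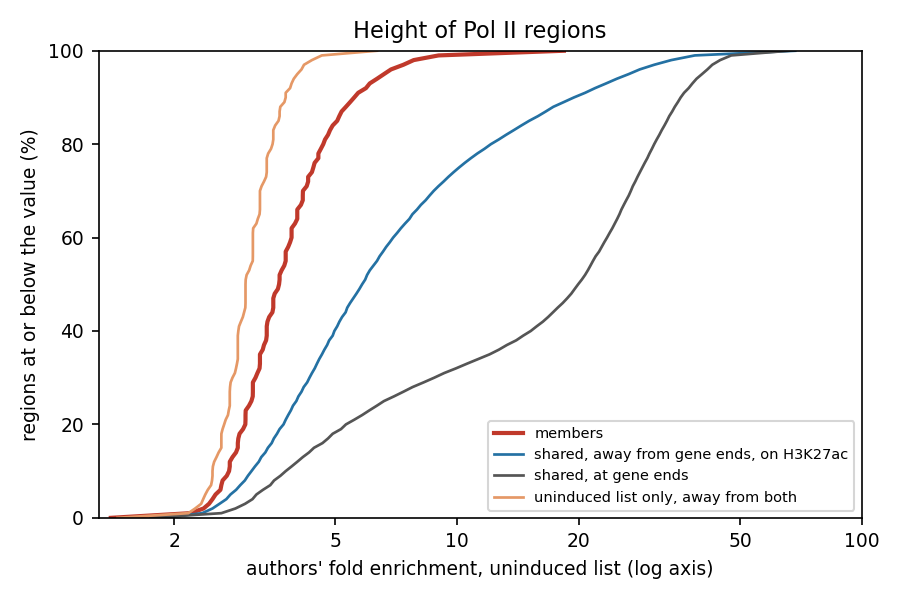
Cumulative share of regions (vertical axis, percent) by the authors' fold enrichment in the uninduced Pol II list (horizontal axis, log scale) for members and 3 other sets of Pol II regions. The member curve lies between the regions found in the uninduced list only (median 2.998) and the shared regions on H3K27ac (median 5.82), and shared regions at gene ends reach a median of 19.9.

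About as many members lay inside protein-coding genes as outside. Inside a gene were 3924 (49.7%, 95% Wilson interval 48.6 to 50.8), against 45.2% of the regions on H3K27ac. Intervals here cover counting error only, since regions are not replicates. Of the 3974 outside, 3008 (75.7%, interval 74.3 to 77.0) lay within 10 kb of a coding gene end, against 28.9% (27.997 to 29.9) on H3K27ac and 73.1% for the uninduced-only regions. Outside coding genes, 1020 members (25.7%) overlapped a noncoding gene or pseudogene, against 36.7% on H3K27ac. A further 2954, 37.4% of all members, met no annotated gene of any kind, but only 274 of these were over 10 kb from every gene.

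Members outside genes lay mostly downstream of them. The strand of a gene was known for 15813 of 19974 coding genes. Among members 1 to 10 kb from the nearest coding end, 1792 lay beyond a 3′ end, 695 lay before a 5′ end, and 521 were next to a gene of unknown strand. The share beyond the 3′ end was 72.1% (70.3 to 73.8) of those with a known strand. On H3K27ac it was 48.3% (46.2 to 50.5), and among the uninduced-only regions 69.4%. The share was highest next to the gene, 77.9% at 1 to 2 kb (519 against 147 members), and was 69.9% at 2 to 5 kb, 70.0% at 5 to 10 kb and 62.1% at 10 to 20 kb. It was 47.2% at 20 to 50 kb and 50.2% beyond 50 kb, where the intervals include an even split. On H3K27ac the share ran from 41.8% to 51.6% over the same distances. The rule removed regions on H3K27ac, which marks active promoters. The part of that removal in the share beyond the 3′ end was not tested.

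**Figure D2:**
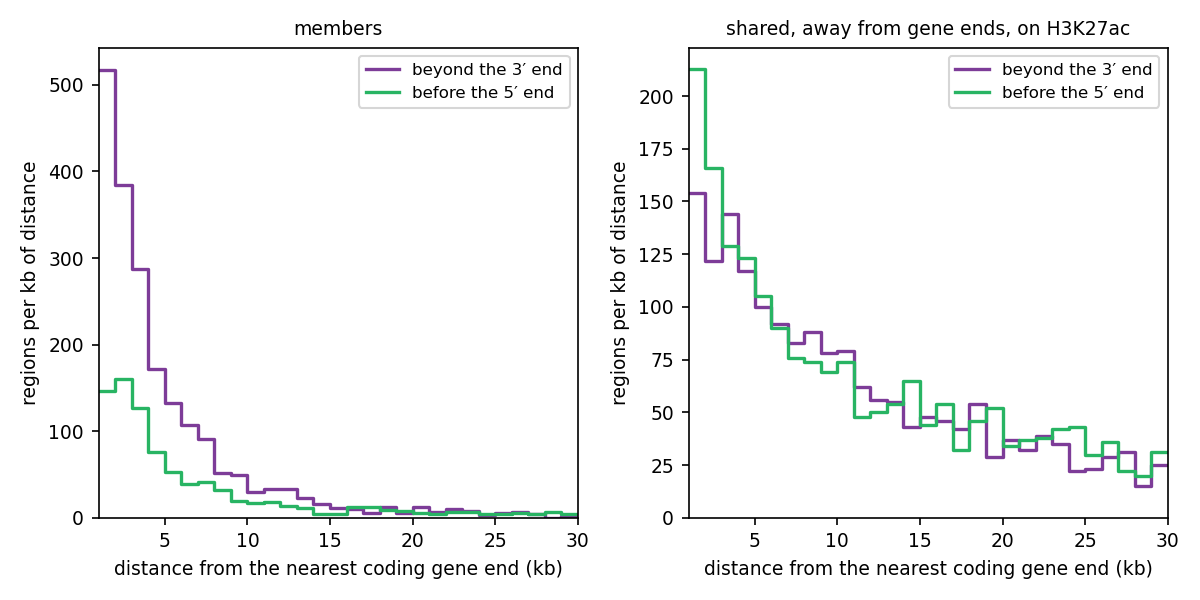
Number of regions per kb of distance (vertical axis) by distance from the nearest protein-coding gene end in kb (horizontal axis), beyond the 3′ end and before the 5′ end, for members (left) and for shared regions on H3K27ac (right); the vertical scales differ. Members beyond the 3′ end exceed those before the 5′ end at 1 to 10 kb (1792 against 695), whereas the counts on H3K27ac are 978 and 1045.

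Inside genes, members lay toward the 3′ end. For the 2994 members inside a single coding gene of known strand, the shares over 5 equal parts of the gene, from its 5′ end, were 11.5%, 13.9%, 16.7%, 22.98% and 34.9% (33.2 to 36.6). The order was the reverse on H3K27ac, with 24.1% of 5888 regions in the first part and 15.03% in the last. Within 5 kb of the 3′ end lay 36.9% of these members, against 8.24% on H3K27ac, while the shares within 5 kb of the 5′ end were 16.2% and 15.6%. The 3480 uninduced-only regions in such genes climbed much as members did, with 14.1%, 14.8%, 16.1%, 21.4% and 33.6% over the 5 parts and 29.5% within 5 kb of the 3′ end. The host genes also differed in length, with a median of 35.1 kb for members and 96.5 kb on H3K27ac, so each part of a gene is a shorter stretch for members. How far the removal of regions on H3K27ac set the place of members inside genes was not tested either.

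**Figure D3:**
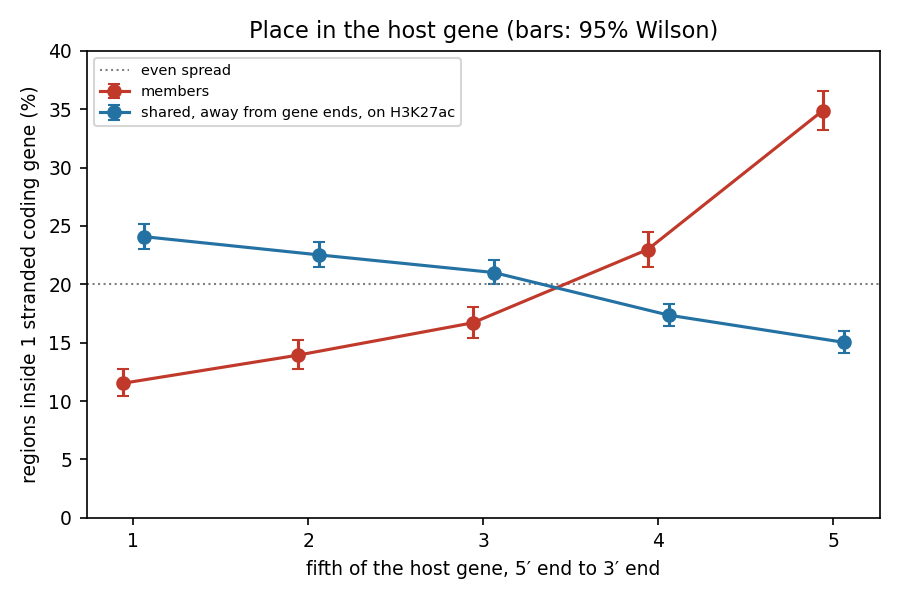
Share of regions (vertical axis, percent) in each of 5 equal parts of the host gene from the 5′ end to the 3′ end (horizontal axis), for members (n = 2994) and shared regions on H3K27ac (n = 5888), with bars for 95% Wilson intervals and a dotted line for an even spread. Members climb from 11.5% to 34.9%, and regions on H3K27ac go from 24.1% down to 15.03%.

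Genes beside members often had H3K27ac and Pol II at their own 5′ ends. Of 1215 genes with a member 1 to 10 kb beyond their 3′ end, 91.0% had H3K27ac within 1 kb of the 5′ end and 89.9% had Pol II there, against 64.7% and 63.9% of all 15813 genes of known strand. Pol II within 1 kb of the 3′ end itself was found in 40.1% of them, against 34.5% of all. The 494 genes with a member before their 5′ end had 88.5% and 92.9%, and 52.4% had Pol II at the 3′ end. The 1887 genes of known strand with a member inside had 83.1% and 85.1%, and 60.4% had Pol II at the 3′ end. Both 3′ end shares were above that of genes with a member beyond the 3′ end.

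Members beyond 3′ ends came singly at most genes and in rows at some. Of the 1215 genes, 821 had 1 such member, 262 had 2, 92 had 3, 30 had 4 and 10 had 5 or more. HMGN2, which encodes a nucleosome-binding protein, had the most, with 6 members from 3.59 to 8.67 kb past its 3′ end (chr1:26472440-26476642, plus strand). Their folds in order from the gene were 3.64, 3.09, 3.31, 3.99, 6.21 and 3.26. The highest of them was not the nearest. MAPKAPK5, a stress-activated kinase gene, had 5 members from 1.36 to 9.96 kb with folds of 5.28, 2.98, 4.79, 4.18 and 6.59, all over 33 kb from H3K27ac. PPP2R1A had 5 from 1.05 to 7.13 kb with folds of 6.08, 6.08, 6.59, 2.84 and 3.13, and here the nearer members were the higher. REST, a repressor of neuronal genes, had 5 from 4.01 to 10.5 kb within a narrow range of folds, 3.54 to 4.03. HNRNPC, an RNA-binding protein gene, had 5 from 2.06 to 12.8 kb, and the farther pair, which lie on or near LINC00641, had folds of 10.4 and 14.4 against 2.41 to 2.73 for the nearer members.

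Members sat close to other Pol II regions. The median gap from a member to the next uninduced Pol II region was 0.269 kb, and 82.8% (81.9 to 83.6) had one within 1 kb, against 31.4% on H3K27ac, 39.6% at gene ends and 64.2% of the uninduced-only regions. Joining Pol II regions over gaps of up to 2 kb put 3552 members (45.0%) in a chain that reached within 1 kb of a coding gene end, against 13.3% of the regions on H3K27ac and 36.7% of the uninduced-only regions. By the same joining, 855 members (10.8%) stood alone, against 59.5% on H3K27ac and 22.2% of the uninduced-only regions. Peak callers can split 1 broad stretch of weak signal into several regions, and whether neighbouring members are separate places was not tested.

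H3K27ac was often nearby although it did not overlap. The median distance to the nearest H3K27ac region of either list was 5.82 kb, 13.0% of members were within 1 kb and 3611 (45.7%) within 5 kb, and 95.7% were within 50 kb. Distance differed with position. Members before a 5′ end had a median of 1.78 kb and 83.9% lay within 5 kb of H3K27ac. Members beyond a 3′ end had a median of 8.87 kb and 32.8% within 5 kb, those inside genes 5.45 kb and 47.3%, and those over 10 kb from a coding end 9.18 kb and 34.7%. Median fold was nearly the same in the 4 positions, from 3.59 to 3.65.

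Strong members were few, and several of the highest lay at noncoding genes. The highest member was inside MCMDC2 and 88 bp from an end of SNHG6, a host gene of small nucleolar RNAs, with a fold of 18.4 and −log10 q of 105.8 uninduced, and 15.3 and 69.9 induced. Another, chr1:71052009-71055957, lay on the lncRNA gene ZRANB2-AS1 with folds of 17.9 and 13.0. Near SNHG15, also a small nucleolar RNA host, the region chr7:44980184-44982928, lay 95 bp from that gene, with folds of 13.3 and 11.8. On LINC02689 the region chr11:1351486-1352839, 37.1 kb from a coding end, had folds of 16.7 and 7.93. Since the rule left out windows at the ends of protein-coding genes only, starts and ends of noncoding genes could enter it.

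The other strong members described here met no noncoding gene, apart from the last. Inside SLC39A10, a zinc transporter gene, chr2:195661267-195663315 had folds of 17.1 and 7.57 and lay 48.2 kb from the nearest gene end and 1.15 kb from H3K27ac. At SARS1, the seryl-tRNA synthetase gene, chr1:109239290-109243393 began 1.11 kb beyond the 3′ end with folds of 15.3 and 14.3. A member 5.09 kb beyond the 3′ end of STAU1, an RNA-binding protein gene, had folds of 12.4 and 11.1 and lay 53.3 kb from H3K27ac. A member 16.2 kb beyond the 3′ end of SLC12A2, a cotransporter gene, had folds of 16.9 and 8.52 and lay 1.87 kb from H3K27ac. Inside genes, SETD1B, a histone methyltransferase gene, held a member of 4815 bp with folds of 14.7 and 8.82, 4.22 kb from a gene end, and ZNF594 held one of 4945 bp with folds of 14.4 and 11.3, 3.84 kb from an end. The ZNF594 member was also 1 of the 4 widest, of which the widest, 16.2 kb beyond the 3′ end of SCCPDH, had folds of 7.45 and 5.30 and overlapped the pseudogene KIF28P, 274 bp from LINC01341.

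By type of noncoding gene, lncRNA genes met the most members, 1111 over 675 genes, which is 14.1% of members against 19.9% of all shared regions. Pseudogenes met 199 members (2.52%, against 1.67% of all shared regions) and transcribed pseudogenes 170 (2.15% against 1.75%). Genes of short structured RNAs met few. Members on tRNA genes numbered 3 of the 154 shared regions there, at TRL-CAA5-1 (fold 6.51), TRL-AAG3-1 (6.70) and TRE-TTC4-2 (5.82). Members on snRNA genes numbered 3 of 57, and those at LOC124904631 (13.5) and RNVU1-26 (10.4) were high while the one at RNVU1-2A (4.80) was not. These snRNA genes belong to a family of near-identical copies, so which copy the reads came from is uncertain. Members on snoRNA genes numbered 4 of 87. Over all shared regions, 7898 of 39838 were members. The rule removed regions on H3K27ac and at coding gene ends, and its part in these counts was not tested.

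The microRNA MIR6859 shows the same limit of near-identical copies. MIR6859-1, MIR6859-2 and MIR6859-3 each lay in a member at copies of a WASH pseudogene, at chr1:16803-18111, chr1:187278-188195 and chr15:101973162-101974129. Their hairpins are identical in RefSeq, so the 3 members cannot be told apart at the microRNA. The mature forms, shared by all 3, are given with the seed (bases 2 to 8) in capitals.
hsa-miR-6859-5p: gAGAGGAAcaugggcucaggaca
hsa-miR-6859-3p: uGACCCCCaugucgccucuguag
The uninduced folds of these members were 4.47, 4.28 and 4.79 and the induced folds 6.14, 4.70 and 5.26. All 3 were above the member median of 3.63. No other hairpins of the table met by members were identical to each other.

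A pair of repeat arrays held dense groups of weak members. The ribosomal RNA genes RNA45SN1, RNA45SN2 and RNA45SN3, which RNA polymerase I transcribes, held 26 members between chr21:8207164 and 8444143 with folds of only 1.39 to 2.39 (median 1.79) but a median −log10 q of 6.41. Of the 30 shared regions on rRNA genes of any kind, 27 were members, beside 7898 of all 39838 shared regions. Over the whole set, 353 members had a fold under 2.5, and 23 of those reached the members' median −log10 q. Of these 23, 21 were on chromosome 21. In the region between PLS3 and AGTR2 on chromosome X there were 35 members from 115726479 to 115888984, 28 of them in DANT1, a noncoding gene of the DXZ4 repeat, with DANT1 folds of 2.47 to 5.43 (median 3.38). The 22 of these that could be paired had median folds of 3.45 uninduced and 3.47 induced. Both arrays consist of repeated copies, so read placement there is uncertain.

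Members were unevenly spread along chromosomes. The bin of 1 Mb with the most was at 81 Mb of chromosome 17, with 37 of its 138 uninduced Pol II regions. Next were 36 of 169 at 1 Mb of chromosome 1. The bins of the repeat arrays held 35 each, of 63 regions on chromosome 21 and 47 on chromosome X. Over the whole uninduced list, members were 13.8% of regions. Per 100 shared Pol II regions, members numbered 23.5 on chromosome 21, 22.9 on chromosome 16, 22.4 on chromosome 13 and 22.3 on chromosome 19. They were lowest on chromosomes X (14.2) and 6 (14.5). Over all chromosomes, 7898 of the 39838 shared regions were members. Of the 140 members on chromosome 21, 26 lay in the ribosomal RNA genes.

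Of the 2308 coding genes that held a member, 1303 held 1, 541 held 2 and 464 held 3 or more. ZNF124, a zinc finger gene, and APPL2, an endosomal adaptor gene, each held 12. In ZNF124 the 12 covered 11.8 kb of a gene of 50.4 kb with folds of 3.33 to 5.44, and in APPL2 they covered 11.1 kb of 62.9 kb with folds of 2.49 to 5.18. Next came the giant scaffold gene AHNAK with 10, and AHNAK2, RDH13, MTCL2 and ZNF91 with 9 each, then SEC14L2 and BACE1 with 8. The folds in these genes stayed low, with the highest being 7.98 in ZNF91 and 5.82 in MTCL2. Among genes of at least 5 kb with 3 or more members, the densest were GAPDHS with 5.06 members per 10 kb, TAF9B and ETFRF1 with 5.05 each, ABHD14A with 4.89 and ZNF789 with 4.76. Where genes overlap, the same members count for both, and 5 members in TAF9B are also the 5 beyond the 3′ end of PGK1.

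Zinc finger genes with a ZNF symbol, a group chosen after these counts were seen, held 188 of the 3924 members inside genes (4.79%, 4.17 to 5.50), against 1.61% of the regions on H3K27ac, 3.58% at gene ends and 3.96% of the uninduced-only regions. They make up 1.66% of the summed length of coding genes. Of the 188, 92 were on chromosome 19, where this family is clustered. In the 164 with a single host of known strand, 29.3% lay in the last of the 5 equal parts of the gene.

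Gene lists written for the tissue and the induction were compared by how many genes had a member inside or within 10 kb. Of all coding genes 28.6% did, and of the 14371 coding genes that met any uninduced Pol II region 38.1% did. Among genes of the transcription and 3′ end processing machinery 16 of 29 did (55.2%, 37.5 to 71.6), among housekeeping and translation genes 15 of 30 (33.2 to 66.8), and among cell cycle and growth genes 14 of 30 (30.2 to 63.9). All 3 intervals include the 38.1% of coding genes that met Pol II. LncRNA genes with abundant transcripts had 13 of 30 (27.4 to 60.8), beside 22.4% of lncRNA genes that met Pol II. Wnt and TCF target genes had 8 of 39 (10.8 to 35.5) and colonocyte differentiation genes 6 of 40 (7.06 to 29.1). Colon identity genes had 2 of 12 (4.70 to 44.8). These 3 intervals include the 28.6% of all coding genes. The Wnt interval lies below the 38.1% of coding genes that met Pol II, and 37 of the 39 Wnt genes met it. Of the colonocyte genes only 23 of 40 met Pol II. The colonocyte share counts all 40 genes, so it cannot be set against that 38.1%. The lists of immune, stromal and endothelial genes and of liver, muscle and neuron genes had 3 of 20 each. The lists also differed in how many genes met Pol II at all, from 30 of 30 for housekeeping to 7 of 20 for the liver, muscle and neuron list, and the part of this in the shares was not tested.

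The side on which members lay also varied between the lists. Around cell cycle genes 17 members lay beyond the 3′ end, 2 before the 5′ end and 6 inside. Around the transcription machinery genes the counts were 19, 0 and 13, with 2 at genes of unknown strand. Around housekeeping genes they were 10, 12 and 10, with 3 unknown. A member within 10 kb of a listed gene can be nearer to another gene.

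PCF11, which encodes a factor that releases Pol II at the end of genes, had 6 members, the most of the transcription list. Of these, 5 lay inside it with folds of 3.76, 4.07, 3.33, 2.63 and 3.43, and the sixth, 1.12 kb beyond its 3′ end (chr11:83188570-83190840), had a fold of 8.92 uninduced and 5.92 induced. CDK12, a kinase of elongating Pol II, had 3 inside (4.10, 5.18 and 3.13) and 1 beyond its 3′ end (4.28). CPSF3, the nuclease that cleaves the transcript at the polyadenylation site, had 3 members 3.27 to 6.60 kb beyond its 3′ end with folds of 4.03, 3.70 and 3.99. ELL, an elongation factor gene, also had 3 beyond its 3′ end, with folds of 4.60, 4.54 and 2.16 at 1.87, 6.33 and 9.57 kb. The low value was the farthest.

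Among cell cycle genes, TOP2A, the DNA topoisomerase of dividing cells, had 3 members at 1.35, 2.13 and 4.47 kb beyond its 3′ end with uninduced folds of 3.27, 4.51 and 4.48 and induced folds of 3.03, 3.36 and 3.18. PLK1, a mitotic kinase gene, had 3 at 2.84, 4.60 and 6.85 kb with folds of 4.15, 4.41 and 3.42. The first of these met an induced region whose highest summit had a fold of 11.5. MCM5, a replication helicase gene, had 3 inside with uninduced folds of 2.995, 3.26 and 2.88 and induced folds of 4.07, 3.32 and 4.07. Among housekeeping genes, PGK1, a glycolytic enzyme gene, had 5 members 2.67 to 6.91 kb beyond its 3′ end with folds of 3.25, 3.26, 2.998, 5.18 and 5.18, all of them inside TAF9B on the opposite strand. The induced folds of the PGK1 members were 2.88, 3.92, 3.92, 4.07 and 3.47. The ribosomal gene RPLP0 had 4, all before its 5′ end, with folds of 2.51 to 3.90 uninduced and 3.32 to 3.63 induced. HSP90AA1 also had 4, all inside. PPIA had 4 as well, lying before its 5′ end, inside and beyond its 3′ end.

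Of the 8 Wnt and 6 colonocyte differentiation genes with members, those with 2 or more are given by name. ASCL2, a transcription factor of intestinal stem cells, had 3 members at 3.20 to 7.08 kb from the gene, whose strand was not known, with uninduced folds of 2.33, 5.23 and 4.22 and induced folds of 4.47, 4.47 and 3.27. TCF7 and ZNRF3, a TCF factor and a ligase that removes Wnt receptors, had 2 each inside. In TCF7 the folds were 4.15 and 3.64 uninduced, and 3.21 and 3.47 induced. In ZNRF3 they were 2.998 and 3.91 uninduced, and 3.36 and 5.08 induced. TSPAN1, a tetraspanin of differentiated epithelium, had 3 inside with uninduced folds of 3.13, 4.54 and 4.80. All 3 met induced Pol II with a highest summit of fold 5.997. Its other member, 4.93 kb beyond the 3′ end, had folds of 3.36 and 3.92. CDHR2, also of the differentiation list, had 3 inside with uninduced folds of 2.61, 3.38 and 3.64. Their induced folds were 3.63, 4.51 and 4.51. Among lncRNA genes, DLEU2 had 7 members with folds of 2.65 to 4.74, and KCNQ1OT1, an imprinted antisense transcript, had 5 with folds of 2.93 to 4.31, all also inside KCNQ1. TUG1 had 5, 3 before its 5′ end and 2 beyond its 3′ end, with folds of 3.25 to 5.43.

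For the comparison of both conditions, regions that met exactly 1 region of the other list, and were met by it alone, were paired. Of the members, 4694 (59.4%) formed such pairs, 1613 (20.4%) met 2 or more induced regions, and 243 (3.08%) met an induced Pol II region that itself overlapped H3K27ac. In member pairs the median width was 621 bp uninduced and 439 bp induced, the median fold 3.49 and 3.38, and the median −log10 q 4.94 and 3.74. The induced region was the narrower in 71.2% of member pairs and in 75.1% of all 30226 pairs. In all pairs the median fold was 6.95 uninduced and 5.90 induced. The lists differ in size and no replicate spread is known, so each pair was placed by its percentile of −log10 q among all pairs of its list.

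Member pairs kept a low place in both lists, with a median percentile of 14.5 uninduced and 16.7 induced. The percentile was over 25 points higher in the induced list for 150 member pairs (3.20%, 2.73 to 3.74), where 1.7% of all pairs were, and over 25 points lower for 66 (1.41%, 1.11 to 1.78), where 2.16% of all pairs were. A pair with an uninduced percentile below 25 cannot move down by that much, and the median member lay below that. Among pairs of like strength, with an uninduced −log10 q of 3.56 to 7.67, the share moving up was 2.09% of 2347 members, 5.86% of pairs on H3K27ac and 4.30% at gene ends. The member share was thus the lowest of these sets at like strength, while over all strengths it was above the 2.08% on H3K27ac and the 0.612% at gene ends. Moves down cannot be compared in this band, which lies at low percentiles.

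**Figure D4:**
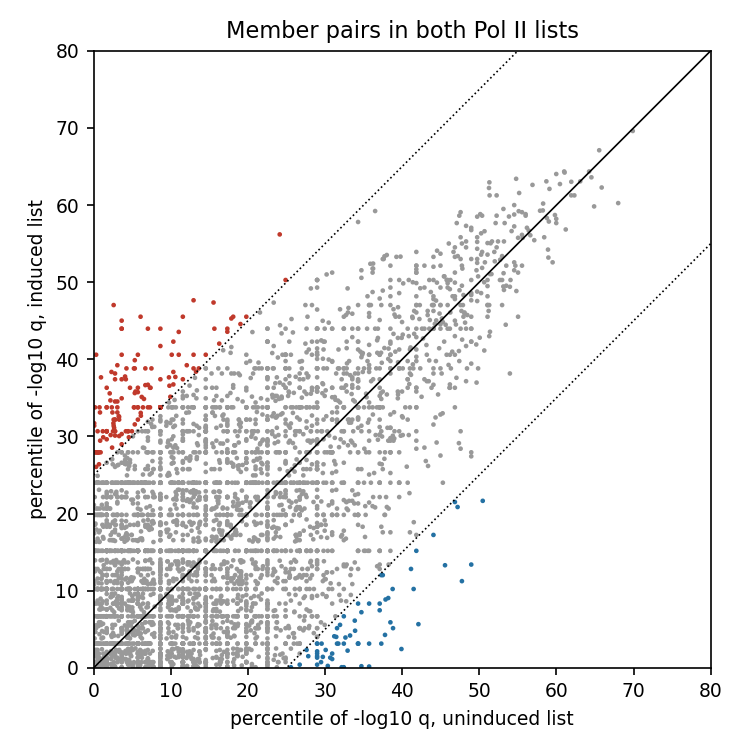
Percentile of −log10 q among all pairs of the uninduced list (horizontal axis) and of the induced list (vertical axis) for the 4694 member pairs; the solid line marks equal percentiles and the dotted lines a difference of 25 points. The 150 pairs above the upper line (red) start from low uninduced percentiles, and the 66 below the lower line (blue) start from above 25.

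The pairs with the largest differences were at single places in varied genes. The largest upward one, chr3:44379046-44380092 inside TCAIM, which encodes a mitochondrial protein,, went from percentile 2.59 (fold 2.39) to 47.0 (fold 5.85). The others with the largest upward values were at LINC02958, 4.64 kb beyond the 3′ end of LAMA3 (3.63 to 45.0), inside ARPIN (3.63 to 44.0), inside MOCOS (3.63 to 44.0) and at ZNF833P (0.316 to 40.6). The largest downward one, chr9:5785964-5787638 inside ERMP1, an endoplasmic reticulum peptidase gene, went from 39.9 (fold 5.38) to 2.44 (fold 2.37). Next were members 7.70 kb from TACC1 (47.7 to 11.2), before IFITM5 (42.1 to 5.66), before PIANP (48.9 to 13.4) and beyond NPIPB2 (35.7 to 0.174). None has a replicate check.

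The highest points of paired regions lay farther apart in members than in the other sets. The strongest summits of the paired regions lay within 200 bp of each other in 59.8% of member pairs (58.4 to 61.2), against 89.4% on H3K27ac, 88.0% at gene ends and 84.0% of all pairs. The median distance was 151 bp in member pairs and 39 bp in all. Among pairs of like strength, as above, the shares were 58.2% of members, 81.5% on H3K27ac and 64.8% at gene ends. Members over 10 kb from a coding gene end had the highest share, 67.8%, and the other positions had 56.5% to 59.6%.

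**Figure D5:**
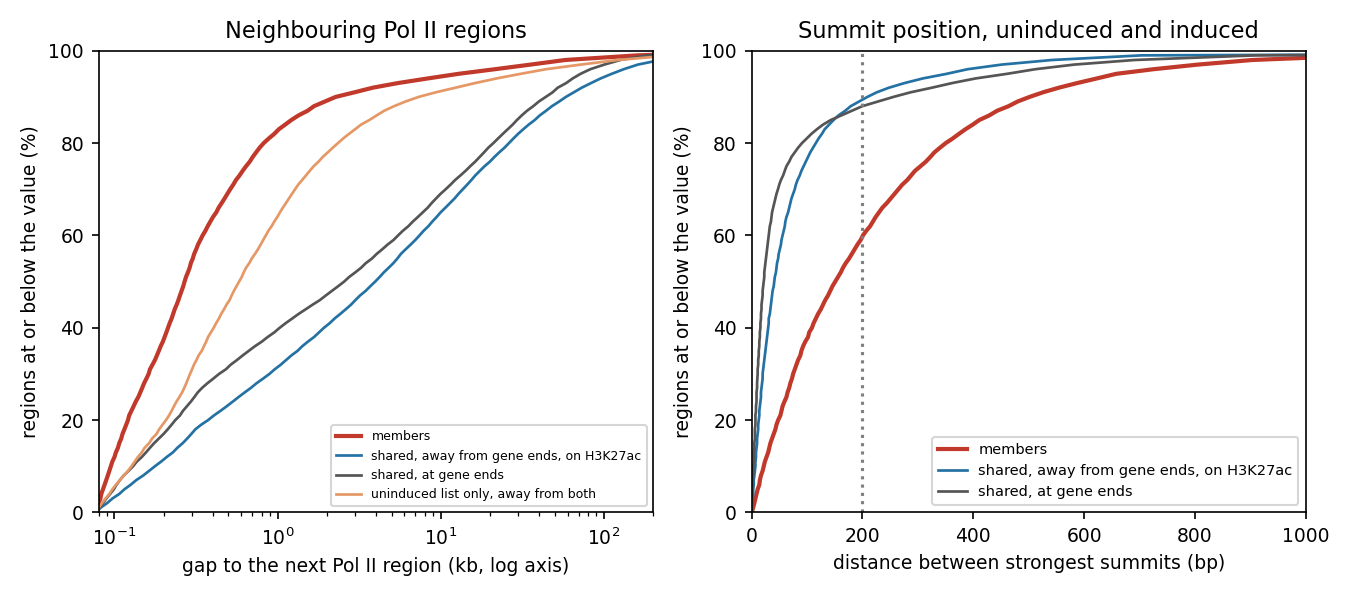
Left, cumulative share of regions (percent) by the gap to the next uninduced Pol II region in kb (log scale); right, cumulative share of pairs by the distance between the strongest uninduced and induced summits in bp, with a dotted line at 200 bp. Members have the shortest gaps (median 0.269 kb) and the longest summit distances (median 151 bp) of the sets drawn.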

How the data were processed

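Per the labels' protocols, chromatin of fixed DLD1 cells was precipitated with antibodies to Pol II and H3K27ac, and 1 peak list serves the 2 samples of a group. Per the submitters' processing notes, which give no role or order, tools included MACS2 2.1.1.20160309, deepTools 3.5.0, BWA 0.7.17-r1188 and SAMtools 1.10. Neither the caller's settings nor any pooling of reads is recorded in those notes. The deposited lists give the authors' fold (a ratio over local background) and −log10 q per summit, with −log10 q from 1.30. They are on GRCh38. Of the 109014 uninduced and 94939 induced Pol II summits, those sharing a region were collapsed to 1 region with the highest fold and −log10 q. Those on other chromosomes, at most 0.374% of a Pol II list, were left out. An overlap needed 1 bp, and the count of shared regions equalled that of bedtools 2.31.1. Where a member met several induced regions, the highest induced value is given. Members that met the same induced region can carry the same induced value.

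Genes were 19974 protein-coding genes of RefSeq GRCh38.p14. Their strand came from the RefSeq promoter table, and 14542 of 15813 genes had a promoter entry within 1 kb of the edge that the strand gives. Overlap, distance and percentile code was tested on simulated data. The depth behind single regions is unknown. The members, the gene lists and the groups compared were chosen with earlier results of these data known. Of the lists, 1 Wnt symbol of 40 and 1 transcription symbol of 30 matched no gene. The printed promoter windows are those of the members with the highest −log10 q among members outside chromosome 8 that hold an lncRNA window whole. Named were the 6 members with the highest −log10 q in each of 3 positions (not all are printed), up to 4 per noncoding type, the 4 widest, the 5 largest percentile differences each way, the 10 genes holding most members (1 of them is not reported here), the 5 densest and up to 3 genes per list, with CPSF3 and ELL, tied for the last place in their list, both kept after their values were seen. Genes with most members beyond their 3′ end and the ZNF genes were named after their values were seen. In the housekeeping list HSP90AA1, PPIA and RPLP0 were tied at 4 members each. Coordinates are 1-based. Alternatives changed the overlap, the −log10 q threshold, the gene-end window, the H3K27ac distance, the width limit and dense bins.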

Additional observations from a re-analysis of the deposited data

How the results depend on the processing

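Of 63 recomputed values, 36 stayed within the main value's interval (counts: within 1.5 times) and 27 moved outside it. A −log10 q of at least 5 in both lists left 2489 members, with 47.5% inside coding genes, 28.8% of the outside ones on noncoding genes, 74.2% of them within 10 kb of a coding end, a median fold of 4.78, 0.895% of pairs moved by over 25 points (main value 4.60%) and 52.9% with summits within 200 bp. A window of 5 kb at gene ends left 3507 members, and the values were 51.3%, 34.8%, 43.4%, 3.52 and, for summits, 61.9%, with 37.4% within 5 kb of H3K27ac, 69.97% beyond the 3′ end and 22.4% in the last part of the gene. That window removes by construction much of the stretch next to the 3′ end. Requiring 50% of the width to be shared gave a median fold of 3.77, 1.56% of pairs moved and 68.4% of summits near. Without H3K27ac within 1 kb, 37.6% lay within 5 kb of it, 77.9% beyond the 3′ end and 36.8% in the last part. Widths under 2000 bp gave a median fold of 3.49. Without dense bins, 24.03% of the outside members met noncoding genes and 77.5% lay within 10 kb of an end. Ranking by fold moved 6.75% of pairs, and summits within 100 bp were 37.7%. For the remaining changes the cause was not tested. In each of these alternatives over 69% of members within 10 kb of a coding end of known strand lay beyond the 3′ end. Every alternative kept the removal of regions on H3K27ac. In the main setting, members before a 5′ end lay nearer to H3K27ac than members beyond a 3′ end (medians 1.78 and 8.87 kb). The part of that removal in the 3′ share was not tested. The alternatives for the 3′ share and the last part were added after the data were seen. No paired analysis was possible because 1 list serves both replicates of a group, and for the same reason no replicate could be left out.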
